A study of Drosophila melanogaster with 2 samples.

Results

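The genes described here encode structural proteins of the insect cuticle. They were taken by name: every protein-coding gene whose Ensembl BDGP6 symbol begins with Cpr and a digit, or with Lcp, Ccp or Edg, was a member. The rule found 95 genes among 13945 protein-coding genes on the 6 chromosome arms analysed (2L, 2R, 3L, 3R, 4 and X): 46 on 3L, 26 on 2R, 14 on 3R, 5 on 2L and 4 on X. The study mapped the occupancy of Oli, a basic helix-loop-helix transcription factor of the Olig family, by chromatin immunoprecipitation and sequencing (ChIP-seq). The material was whole Drosophila melanogaster embryos of mixed sex, 6 to 18 hours old, of a stable transgenic line in which GFP is joined to the C terminus of Oli, and an anti-GFP antibody pulled down the chromatin. The tagged Oli is an added transgene copy. There was 1 group of 2 biological replicates and no second genotype, treatment or stage. Whole embryos were used, so the peaks do not tell which cells held the protein.

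Most members code for proteins with the Rebers and Riddiford consensus, a stretch that binds chitin. Cuticle proteins are secreted by the epidermis and its derivatives, including tracheal and foregut cells, and are laid down with chitin fibres to form the exoskeleton. The first larval cuticle is made late in embryogenesis, and other members serve later larval, pupal or adult cuticles. Lcp stands for larval cuticle protein, Edg for genes that respond to the moulting hormone ecdysone, and many members arose by tandem duplication and stand side by side in the genome. Oli itself is known from the embryonic nervous system.

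Peaks came as 4 deposited lists (assembly dm6): 30000 peaks for each replicate, 30000 from the pooled replicates, and 6496 peaks that passed a threshold on the irreproducible discovery rate (IDR), a measure of agreement between replicates. Peak signal is the enrichment score that the authors' files give each peak, and signals were set against each other within a list only. Each peak was tied to the protein-coding gene with the start site nearest to its summit. A peak with its summit within 500 bp of that start is called a promoter peak, and any other a distal peak. No source used here states read numbers, so the depth is unknown. A gene without a peak is one with none in these lists, not one shown to be unbound. With no second condition and with members chosen by name, the comparisons with all coding genes are descriptions without a test.

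In the IDR list few cuticle protein genes had a peak, and nearly none had one at the promoter. Of the 95 members 11 (11.6%) had 1 or more IDR peaks tied to them, against 3527 of 13945 coding genes (25.3%). A promoter peak was tied to 1 member (1.05%), Cpr65Ea, against 1929 coding genes (13.8%). A distal peak was tied to 10 members (10.5%), against 2125 coding genes (15.2%). In all, 14 IDR peaks belonged to members, 1 at a promoter (7.14%, exact Clopper-Pearson 95% interval 0.181 to 33.9) and 13 distal. Over all 6496 IDR peaks 33.0% (31.9 to 34.2) were promoter peaks. This contrast in share rests on few peaks: without replicate 2, in the strongest 6496 peaks of replicate 1, 4 of 13 members' peaks were promoter peaks (30.8%), against 33.6% of all, and without replicate 1 they were 2 of 14 (14.3%), against 33.4%. These intervals cover counting error over peaks only.

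**Figure D1:**
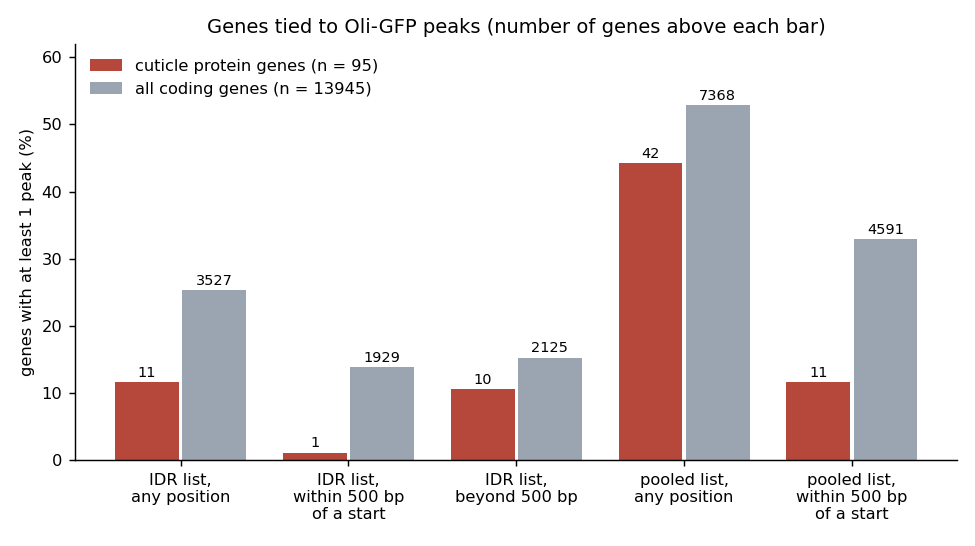
Share of genes (%) with at least 1 peak among the 95 cuticle protein genes (red) and all 13945 coding genes (grey), by peak list and position; the number of genes stands above each bar. At promoters the IDR list reached 1 cuticle protein gene (1.05%) and 1929 coding genes (13.8%).

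The 11 members with an IDR peak were Cpr92A, Cpr65Eb, Cpr51A, Cpr67Fb, Cpr76Ba, Cpr73D, Cpr65Ea, Cpr65Aw, Cpr67Fa1, Edg91 and Cpr100A. Before their values, the reference sequence at the summits is shown for the 6 of them with the highest signal, Cpr51A left aside. The assignments to these genes rest on the distance from summit to start, not on the sequence. The summit tied to Cpr92A lies far from that gene, in an intron of Dys. Each run is the summit with 50 bases on either side (dm6, plus strand, 5′ to 3′), read from release 6 of the Drosophila genome. Capitals mark E-boxes, the letters CANNTG that basic helix-loop-helix proteins bind.

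Cpr92A, chr3R:19584902-19585002: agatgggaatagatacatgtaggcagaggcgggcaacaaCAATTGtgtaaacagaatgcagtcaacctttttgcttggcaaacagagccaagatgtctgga
Cpr65Eb, chr3L:7090933-7091033: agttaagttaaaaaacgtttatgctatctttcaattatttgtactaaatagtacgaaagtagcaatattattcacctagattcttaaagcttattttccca
Cpr67Fb, chr3L:10893519-10893619: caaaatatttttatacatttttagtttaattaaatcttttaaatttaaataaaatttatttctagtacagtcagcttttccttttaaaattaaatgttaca
Cpr76Ba, chr3L:19516677-19516777: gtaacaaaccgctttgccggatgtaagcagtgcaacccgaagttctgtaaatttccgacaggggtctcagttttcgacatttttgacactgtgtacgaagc
Cpr73D, chr3L:16941340-16941440: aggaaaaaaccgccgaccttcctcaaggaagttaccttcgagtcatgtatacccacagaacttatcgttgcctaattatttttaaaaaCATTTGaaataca
Cpr65Ea, chr3L:7086810-7086910: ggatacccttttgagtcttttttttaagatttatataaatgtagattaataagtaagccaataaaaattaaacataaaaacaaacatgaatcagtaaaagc

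An E-box was present in the Cpr92A and Cpr73D windows and in none of the other 4. Over all 14 member summits 4 windows held at least 1 E-box (28.6%), against 32.3% of the 6496 IDR summits. CATATG, an E-box that Olig proteins of mammals favour, stood at 1 member summit, a distal peak of Cpr100A, and at 4.0% of all IDR summits. CAGCTG and CAAGTG stood at 0 member summits, and at 2.28% and 4.93% of all. Likewise 0 member summits held ACCGGTT, letters of the type bound by the epidermal factor Grainy head (0.154% of all summits), AAGGTCA, letters of the type bound by Ftz-f1 (0.785%), or GAGAG (8.10%). TACTAA was found at 1 member summit, that of Cpr65Eb, and at 8.85% of all. These letters were searched on both strands, CANNTG includes the 3 named E-boxes, and with 14 windows a share of 5% amounts to less than 1 window.

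The windows ran from very AT-rich to GC-rich. The GC content of the same stretch had a median of 25.7% over the 14 member summits and of 29.7% over all IDR summits. Their mean was 30.4% (SD 12.9), against 30.9% (SD 8.21, n = 6496 peaks). The lowest was the Cpr67Fb summit shown above, at 14.9%. At the high end stood the weaker of the 2 Cpr73D summits, at 57.4%, and those of Cpr76Ba (46.5%), Cpr92A (44.6%) and Cpr67Fa1 (43.6%).

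None of the 14 peaks was among the strongest of the experiment. Their signals ran from 157 to 420.1 with a median of 252, against a median of 295 and a maximum of 6343 over all IDR peaks, and 4 of the 14 fell in the stronger 3248 of the list. By rank in the IDR list the highest stood at 2093. The 14 peaks differed in place as well: 11 summits lay between genes (78.6%) and 3 in introns, against 37.3% between genes and 54% in introns for all IDR summits. Members are short genes, with a median length of 875 bp, against 2166 bp for all coding genes. What gene length contributes to this difference in place was not tested. Upstream of the start lay 9 of the 14 (64.3%), against 56.7% of all.

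**Figure D2:**
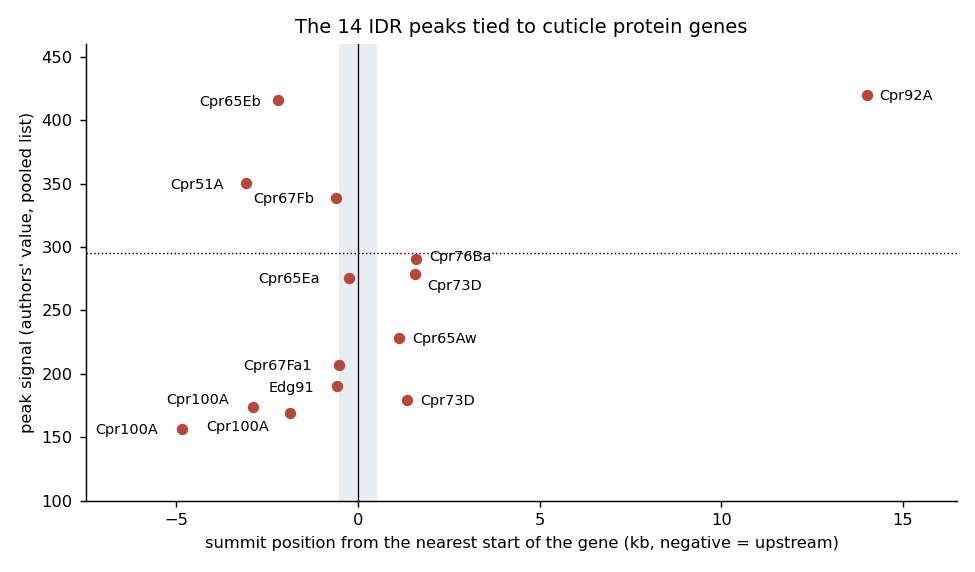
Signal of the 14 IDR peaks tied to cuticle protein genes (from the pooled list, linear axis) against the position of the summit from the nearest start of the gene in kb, negative upstream; the shaded band is 500 bp either side of the start and the dotted line the median signal of all IDR peaks. Of the 14 summits 1, at Cpr65Ea, lies in the band, and 4 lie above the line.

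The only promoter peak in the IDR list belonged to Cpr65Ea (FBgn0035735, 3L 7086003 to 7086608, minus strand), a chitin-binding family member in a cluster of 3. The peak spanned 7086652 to 7087067, with its summit 252 bp upstream of the start and a signal of 276. It ranked 5278 in replicate 1 and 2815 in replicate 2. The gene also had 3 weaker peaks in the pooled list, the highest 451 bp upstream with a signal of 139. Next to it, Cpr65Eb (FBgn0035736) had the second highest signal of the family, 415, at a peak from 7090775 to 7091190. That summit stood 2196 bp upstream of Cpr65Eb and 2221 bp from the start of Cpr65Ec, so the summit was almost equally near to both neighbours.

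Further peaks lay just beyond the promoter distance. At Cpr67Fa1 (FBgn0036108, 3L 10889990 to 10890700, plus strand) the summit was 511 bp upstream (signal 207), at Edg91 (FBgn0004554, 3R 17610856 to 17611511, minus strand) 574 bp upstream (190.4), and at Cpr67Fb (FBgn0036110, 3L 10894173 to 10894693, plus strand) 604 bp upstream (339). Edg91 is an ecdysone-dependent gene, and its summit was 802 bp from the start of the neighbouring CG34281. The count of members with a promoter peak therefore moved with the distance: it was 0 at 200 bp, 1 at 500 bp and 4 at 1000 bp, while 8.98%, 13.8% and 16.3% of all coding genes had one.

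The remaining peaks lay farther out. The highest signal of the family, 420.1, belonged to a peak tied to Cpr92A (FBgn0038714), but its summit was 14003 bp downstream of the start of that gene, inside an intron of Dys, which encodes dystrophin. Cpr51A (FBgn0033942) had a peak 3087 bp upstream (350.1), and Cpr76Ba (FBgn0036878) one 1605 bp downstream of its start and past its end (290.2). Cpr65Aw (FBgn0052404) had one 1142 bp downstream, likewise past its end (228). That summit was 1297 bp from the start of the neighbouring Cpr65Av, so it was nearly as close to Cpr65Av. Cpr73D (FBgn0036680), at 3L 16939100 to 16957689 a long gene for this family, had 2 intronic summits 1559 and 1358 bp downstream of an internal start (279 and 179.7). Cpr100A (FBgn0039805) had the most IDR peaks, 3, all upstream and between genes, at 1885, 2900 and 4835 bp (169, 174 and 157).

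Agreement between the replicates was close for some of these peaks and poor for others. The Cpr51A peak ranked 2748 in replicate 1 and 2791 in replicate 2, and the Cpr65Eb peak 2283 and 2113. The Cpr92A peak ranked 1777 and 2665, and the Cpr67Fb peak 2205 and 3411. For Cpr76Ba the ranks were 7279 and 1820, with the peak much higher in the order of replicate 2. For the weaker Cpr73D peak they were 3096 and 10207, and in replicate 1 both Cpr73D peaks matched the same peak. All 14 overlapped a peak in both replicate lists, as did 99.5% of all IDR peaks, and 13 had a summit within 100 bp in both (92.9%, against 94.6% of all). The IDR list was made from these replicates, so this overlap follows in part from its making.

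**Figure D3:**
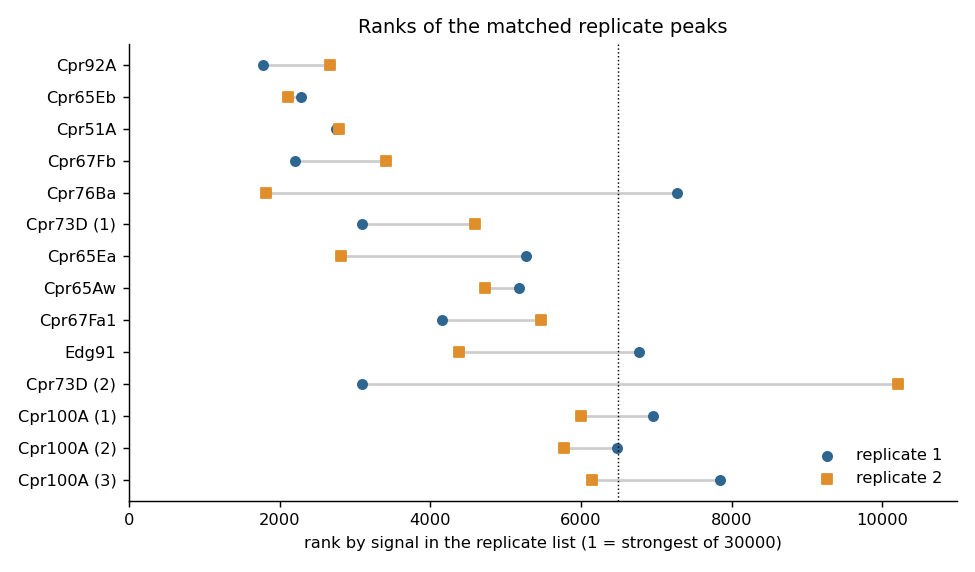
Rank by signal of the replicate 1 peak (circle) and the replicate 2 peak (square) matched to each of the 14 IDR peaks tied to cuticle protein genes, in order of pooled signal; numbers in brackets tell peaks of the same gene apart. The dotted line is rank 6496, the length of the IDR list, which 4 peaks exceed in replicate 1 and 1 exceeds in replicate 2.

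Taken alone, each replicate gave a like number of genes. Among its strongest 6496 peaks replicate 1 had peaks tied to 11 members, where 24.6% of all coding genes had one, and replicate 2 had peaks tied to 12 members, where 25.8% had one. Shared by both were 9 members. Cpr65Av and Cpr65Az appeared in replicate 1 alone, and Ccp84Aa, Cpr76Ba and Edg91 in replicate 2 alone. For these strongest peaks the overlap was not counted over all coding genes, so it has no background here. In the whole replicate lists 33 members (34.7%) had a peak in both, against 46.3% of all coding genes. Promoter peaks were less stable in number: replicate 1 had 4, at Cpr65Av, Cpr65Ea, Cpr67Fa1 and Cpr67Fb, and replicate 2 had 2, at Cpr65Ea and Cpr67Fa1. The summit at Cpr67Fa1 was 69 and 18 bp from the pooled one in replicates 1 and 2, which moved it across the 500 bp line.

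The members stand in short territories, a territory being all bases nearer to a gene's own starts than to those of any other coding gene. The median was 2.74 kb for the members and 4.25 kb for all coding genes, and 0 members had one over 20 kb, where 56.1% of all coding genes with such territories had an IDR peak. In the classes of territory length that held members, their share was the lower, on 2 to 6 members with a peak per class. Counting error was not estimated for these shares. Under 2 kb, 2 of 32 members had an IDR peak (6.25%), against 11.6% of all coding genes. From 2 to 5 kb, 3 of 32 had one (9.38%), against 17.2%, and from 5 to 20 kb, 6 of 31 (19.4%), against 32.3%. Per Mb of territory the members had 33.2 IDR peaks, against 48.5 for all coding genes. The distal peaks alone came to 30.8 and 32.5 per Mb, and the promoter peaks to 1.05 per 100 members and 15.4 per 100 coding genes. What territory length contributes to the counts was not tested beyond these classes.

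In the longer pooled list the shares of genes lay closer together. In the pooled list of 30000 peaks 42 members (44.2%) had 1 or more tied to them, against 52.8% of all coding genes. These were the 14 IDR peaks and 87 below the threshold, or 106 per 100 members, against 215 per 100 coding genes. Per Mb of territory the order was the other way, with 239.6 pooled-list peaks for members and 224 for all coding genes. Distal peaks alone came to 206 and 177. This order rested on Cpr35B, which had 20 pooled-list peaks in a territory of 16795.5 bp. Without that gene both values of the members would lie below those of all coding genes, so the order does not describe the family as a whole. From 5 to 20 kb of territory 71.0% of members had a pooled-list peak, against 69.9% of all coding genes, and from 2 to 5 kb 43.8%, against 42.2%. Under 2 kb the members' share was the lower, with 6 of 32 (18.8%), against 25.2% of all coding genes. At promoters the shares were further apart, with a pooled-list promoter peak at 11 members (11.6%), against 32.9% of all coding genes. Of the members' pooled-list peaks 13.9% passed the IDR threshold, against 21.7% of the 30000. Overlap with a peak in both replicate lists was found for 57 of the 87 members' peaks below the threshold (65.5%), against 61.9% of all such peaks. Within 200 bp of the start lay 4.95% of the members' pooled-list peaks, against 12.1% of all, and beyond 500 and up to 1000 bp 20.8%, against 8.78%.

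**Figure D4:**
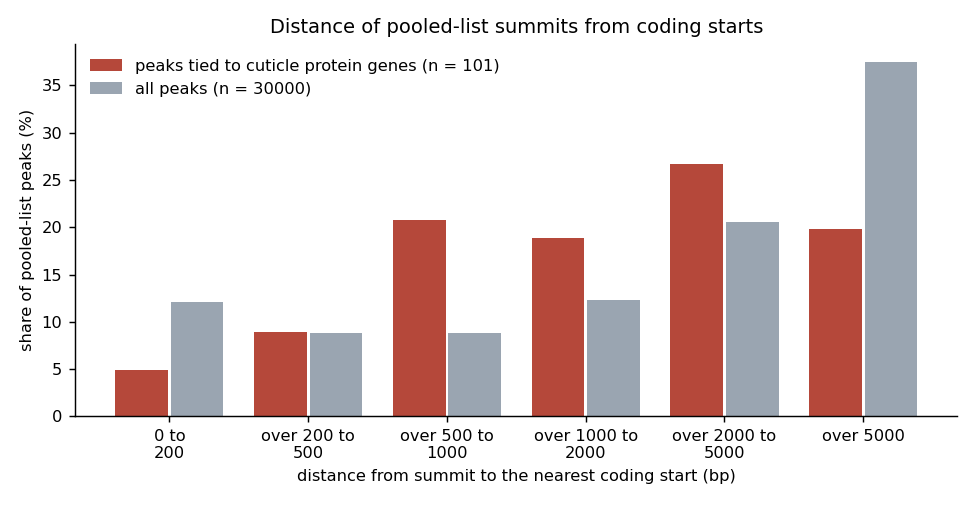
Share (%) of pooled-list peaks by distance from the summit to the nearest coding start, for the peaks tied to cuticle protein genes (red) and all 30000 peaks (grey). Members' peaks are fewer within 200 bp (4.95% and 12.1%) and more numerous beyond 500 and up to 1000 bp (20.8% and 8.78%).

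Of the 5 members with the most pooled-list peaks, Cpr100A and Cpr65Ea had IDR peaks, as given above, and the other three had none. Cpr35B (FBgn0028871, 2L 14424315 to 14425189, minus strand) was the nearest gene of 20 pooled-list peaks, 17 in replicate 1 and 17 in replicate 2, spread over a territory of 16795.5 bp. Of these 0 passed the IDR threshold, and the highest, 11779 bp upstream, had a signal of 118 and rank 8602. Cpr62Ba had 7 pooled-list peaks, Cpr66Cb 5, and Cpr100A and Cpr65Ea 4 each. Coding exons held 10 of the members' pooled-list summits (9.90%), against 4.72% of all pooled-list summits. No IDR peak of a member had its summit in an exon, and few of all IDR summits did. Of all IDR summits 0.339% lay in coding exons and 2.48% in non-coding exons. Untranslated exon parts held 4.46% (5′) and 1.46% (3′), so with 14 peaks a count of 0 is near the background.

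Clusters of members were then compared. Runs of at least 3 members with neighbouring starts at most 20 kb apart formed 12 clusters of 3 to 17 genes, with 68 members in all. A pooled-list peak was tied to a member in 11 of the 12 clusters and an IDR peak in 4: Cpr65Ea to Cpr65Ec and Cpr67Fa1 to Cpr67Fb on 3L, with 2 peaks each, and Lcp65Ag3 to Cpr65Az and Cpr76Ba to Cpr76Bd on 3L, with 1 each. The other 8 were Lcp1 to Lcp4, Cpr47Ea to Cpr47Eg and Cpr49Aa to Cpr49Ah on 2R, Cpr62Ba to Cpr62Bc, Cpr64Aa to Cpr64Ad, Cpr72Ea to Cpr72Ec and Cpr78Ca to Cpr78Cc on 3L, and Edg84A to Ccp84Aa on 3R. In clusters 6 of 68 members had an IDR peak (8.82%), and outside clusters 5 of 27 (18.5%), against 25.3% of all coding genes. Territories were shorter in clusters, with a median of 2.46 kb and 6.96 kb outside. In the classes that hold these medians 17.2% and 32.3% of all coding genes had an IDR peak. The 12 spans together held 30.1 IDR summits per Mb, against 48.5 over the 6 arms, and 211 pooled-list summits per Mb, against 224.

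**Figure D5:**
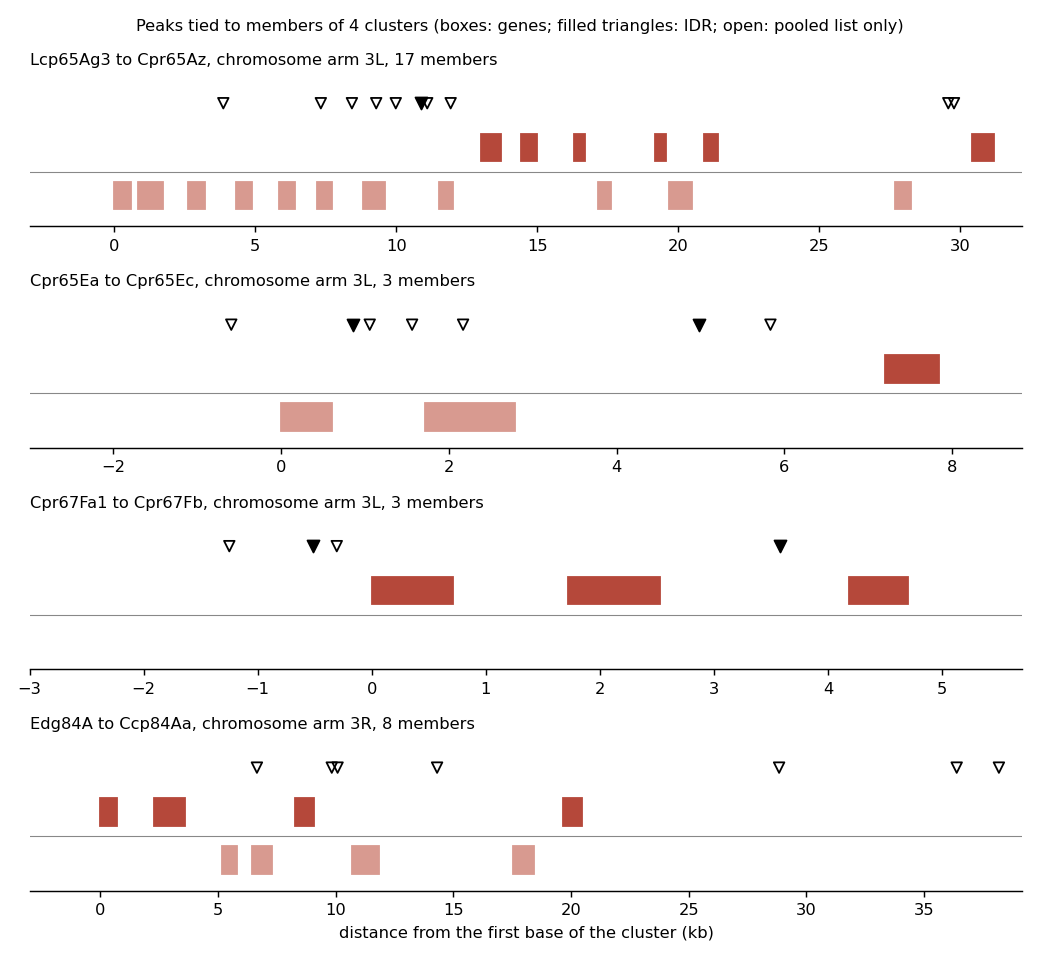
Genes and summits in 4 clusters of cuticle protein genes, against distance in kb from the first base of the cluster; boxes above the line are genes on the plus strand and boxes below it genes on the minus strand, filled triangles are summits of IDR peaks tied to members and open triangles summits in the pooled list only. Cpr65Aw is tied to the 1 IDR peak of the largest cluster, and the cluster from Edg84A to Ccp84Aa has none.

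The largest cluster, from Lcp65Ag3 to Cpr65Az (3L 6130386 to 6161589), held 17 members in 31.2 kb. Its peaks were unevenly spread. The 8 members from Lcp65Ag3 to Cpr65Aw had 8 pooled-list peaks tied to 4 of them. The 9 members from Lcp65Ad to Cpr65Az had 2, both at Cpr65Az, and the other 8 of this stretch had no peak in any of the 4 lists. Near-identical copies stand there. Around the starts of Lcp65Ab1 and Lcp65Ab2 90.4% of the 31-base words within 500 bp occurred again in the genome, and for Cpr65Ax1 and Cpr65Ax2 76.4% and 72.1%. No source used here says how reads that match several places were treated, so the lack of peaks at these 4 genes is uncertain. The other 91 members had at most 50% of such words, and 11 of them (12.1%) had an IDR peak. An IDR peak with a signal of 532 did stand inside this cluster (6157553 to 6157968), but its nearest start was that of CG13297, 384 bp away. Similarly, the only IDR peak within the span from Cpr47Ea to Cpr47Eg, with a signal of 480.3, was nearest to TpnC47D, a troponin C gene.

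The classical larval and ecdysone-dependent genes were mostly empty. Lcp1, Lcp2, Lcp3 and Lcp4, which encode abundant proteins of the third-instar larval cuticle, had no peak in any list, and the nearest IDR summits stood 178368 and 24114 bp outside their cluster. Edg78E and Edg84A, which encode pupal cuticle proteins, also had no peak in any list, whereas Edg91 had the IDR peak given above. The cluster from Edg84A to Ccp84Aa stands between lab and pb, Hox genes of the Antennapedia complex. Its 8 members had 7 pooled-list peaks, the highest with a signal of 138 at 18536 bp downstream of the start of Ccp84Aa, inside an intron of pb. In replicate 2 the best peak tied to Ccp84Aa ranked 5479, and in replicate 1 10988. In all, 44 of the 95 members (46.3%) had no peak in the pooled list or either replicate list, against 37.3% of all coding genes.

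Most members have a promoter type that the choice by name did not use. The letters TATAAA stood on the sense strand 45 to 15 bp before a start in 64 of 95 members (67.4%), against 1475 of 13945 coding genes (10.6%). It is not particular to the members. On the lists of other cuticle genes given below, 15 of 25 Tweedle genes (60%) and 5 of 8 further cuticle protein genes (62.5%) had the letters. Of the 10 obstructor-type chitin-binding genes 2 had them (20%). Examples among the members are the 3 ecdysone-dependent genes, of which Edg91 had the distal peak 574 bp upstream and the others had no peak. Their 31 bases in that window, read on the gene's strand with TATAAA in capitals (dm6, release 6), are given here; they were picked after their values were seen.
Edg78E, chr3L:21297818-21297848, minus strand: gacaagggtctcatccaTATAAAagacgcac
Edg84A, chr3R:6684400-6684430, plus strand: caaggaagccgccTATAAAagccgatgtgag
Edg91, chr3R:17611526-17611556, minus strand: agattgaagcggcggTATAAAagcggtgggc

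Among coding genes with TATAAA 127 of 1475 (8.61%) had an IDR promoter peak, against 1 of the 64 members with it (1.56%). An IDR peak at any position was tied to 8 of these 64 members (12.5%) and to 18.0% of all coding genes with the letters, and to 3 of the 31 members without them (9.68%), against 26.2% of all coding genes without them. At the promoter 0 of these 31 members had an IDR peak, against 14.5% of those coding genes. Members also had fewer annotated starts, with a single one in 89.5%, against 73.5% of all coding genes, which gives them fewer windows in which TATAAA could be found and fewer promoter stretches.

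Other cuticle genes were counted on lists chosen by function, with earlier results of these data known, beside the 25.3% of all coding genes with an IDR peak. Cuticle protein genes outside the naming rule had no IDR peak: 0 of 25 Tweedle and 0 of 10 obstructor-type chitin-binding genes. Of 8 further genes, such as Pcp, resilin and the Vajk genes, 0 had one. These 8 were not sorted by protein family, and Acp65Aa among them lies inside the cluster from Lcp65Ag3 to Cpr65Az. Together these 43 genes had a median territory of 3.04 kb, and 22 of them (51.2%) had a peak in the pooled list, close to the 52.8% of all coding genes. Of 13 genes of chitin synthesis and organisation 4 had an IDR peak (30.8%), against 32.3% of all coding genes in the territory class of this list's median, 8.45 kb. They were the chitinase-family gene Cht7 (a promoter peak, 186 bp upstream, signal 966), mmy, which makes the sugar donor of chitin (457), reb (215) and the chitin deacetylase gene verm (169). Of 9 genes of tanning and pigment, with a median territory of 6.98 kb in the same class, 2 had one (22.2%), Ddc, which encodes dopa decarboxylase (302), and t (179). AANAT1, a further entry of that list, was not matched by symbol.

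Most of the listed regulators of the epidermis and of moulting had peaks. An IDR peak was tied to 9 of the 10, at a median territory of 33.1 kb, a length class in which 56.1% of all coding genes had one. The list is short and was chosen with earlier results known, so its share does not speak for such regulators as a class. The highest signals were those of Hr3, a nuclear receptor induced by ecdysone (4 peaks, highest signal 3142), grh, which encodes Grainy head (3 peaks, 1032), and ftz-f1, a nuclear receptor that acts on Edg genes in prepupae (15 peaks, 923). Blimp-1 was the 1 regulator without an IDR peak.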

How the data were processed

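Oli-GFP ChIP-seq was made from whole embryos aged 6 to 18 hours in 2 biological replicates, and chromatin was sheared to fragments of 200 to 800 bp, per the labels. Ages follow the source description, because the separate age field holds no plausible value. The authors deposited narrowPeak lists with a signal per peak, on dm6, per the accompanying file notes: each replicate list from its alignments and 1 control, a pooled list from both, and an IDR-thresholded list from these 3. The replicate lists share the control. The IDR peaks are the strongest 6496 of the pooled list. No aligner or peak caller is named in the sources used here. For each peak a deposited offset column gave the summit. Alignments, signal tracks and the control were not analysed here.

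Genes came from Ensembl release 115 (BDGP6.54) and sequence from release 6 of the genome, the same assembly. All annotated transcript starts of coding genes were used, and ties went to the lower gene identifier. Word repeats were counted over 31-base words on both strands of the 6 arms. Python 3.11.15, numpy 2.4.6, pandas 2.3.3, scipy 1.17.1, pysam 0.24.0 and matplotlib 3.10.9 were used. The assignment was tested on 2000 simulated summits, of which 0 went to a start that was not the nearest. Alternatives were other peak thresholds, single replicates, other start sites, promoter distances, overlaps, cluster gaps and window widths. The members and lists were chosen with earlier results of these data known. Named genes were the members with an IDR peak, the 5 with the most pooled-list peaks, Lcp1 to Lcp4, the Edg genes, the ends of each cluster and the 3 strongest genes of each other list; further names were picked with their values in view. The 2 samples are separate biological replicates by their labels, and no p-value is given.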

Additional observations from a re-analysis of the deposited data

How the results depend on the processing

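Of 40 recomputed values 28 stayed within 1.5 times the reported count, or within the interval or SD of the reported value, and 12 did not. For the promoter share that interval is wide, 0.181 to 33.9%, and it also holds the 33.0% of all IDR peaks. The 30.8% found without replicate 2 was therefore counted as within it, so staying within says little about this share. With the stronger 3248 IDR peaks 4 members had a peak, against 15.6% of all coding genes, and 0 had a promoter peak, against 8.43%. The peaks tied to members came to 4.21 per 100 members, against 23.3 per 100 coding genes. Their promoter share was 0%, against 38.8% of all 3248. With the whole pooled list 42 members had a peak, against 52.8% of all coding genes, and 11 had a promoter peak, against 32.9%. There were 106 peaks per 100 members, against 215 per 100 coding genes, where the IDR list gave 14.7 and 46.6. Promoter distances of 200 and 1000 bp gave 0 and 4 members with a promoter peak, and at 200 bp the promoter share was 0%. With 1 replicate left out, the members with a promoter peak numbered 2 (without replicate 1) and 4 (without replicate 2). Of all coding genes 14.3% and 13.6% had one. The members with a peak numbered 11 to 12, against 24.6% to 25.8% of all coding genes. The peaks per 100 members came to 13.7 to 14.7, against 46.6 per 100 coding genes. The promoter share was 14.3% to 30.8%, against 33.4% to 33.6% of all peaks. Leaving out the summit inside another coding gene, an alternative chosen after the data were seen, left 10 members with a peak. That filter was not applied to all coding genes, so this count has no background here. No paired analysis was possible because there is 1 group. With 14 peaks, 1 peak moves a share by 7.14 percentage points, and depth is unknown.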

Other observations

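Pseudogenes of the family were outside the rule. Lcp65APsi (3L 6148353 to 6148615) lay 7082 bp from the nearest IDR summit and 3896 bp from the nearest pooled-list summit. Lcp1Psi (2R 8432886 to 8433384) lay 29225 and 11412 bp from them.

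By chromosome arm, an IDR peak was tied to 7 of 46 members on 3L (15.2%, against 27.5% of all coding genes of that arm), 3 of 14 on 3R (21.4%, against 24.3%), 1 of 26 on 2R (3.85%, against 22.0%), 0 of 5 on 2L (against 24.9%) and 0 of 4 on X (against 29.5%). From the outermost start of a gene the nearest IDR summit, whichever gene it was tied to, was a median of 10.8 kb away for members and 6.57 kb for all coding genes. Within 5 kb stood a summit for 28.4% of members and 43.3% of all coding genes.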
